A study of Mus musculus with 14 samples.

Results

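C2C12 cells, a mouse cell line of muscle precursors that proliferate in serum and fuse when it is withdrawn, were compared in an activated and in a quiescent state while carrying a control short hairpin RNA (shControl). The comparison holds 3 libraries of activated shControl cells and 3 of quiescent shControl cells, 6 of the 14 libraries of the series. The other 8 come from cells with a hairpin against Foxm1 (shFoxM1), 4 activated and 4 quiescent, and are used here only to set the same contrast beside it. Quiescent cells had been taken off the dish and held in suspension in a methylcellulose medium with serum, a culture that stops the cell cycle. Suspension and its medium thus came with the quiescent state, and the comparison cannot tell them apart. The labels do not say how or for how long cells were activated, nor the sequence, promoter or integration of the hairpin, nor whether the cells are 1 clone or a pool. Whether the 3 libraries of a state come from independent cultures is not stated either, so p-values cover only the scatter among these libraries and that scatter may be technical. Genes entered the comparison if they had at least 1 FPKM (fragments per kilobase of transcript, scaled to library size) in at least 3 of the 6 libraries, which kept 11742 of the 49585 genes of the table.

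A myoblast that leaves the cell cycle reversibly is called quiescent, the state in which muscle stem cells wait in resting muscle. Such cells are small, make little protein, keep inhibitors of cyclin-dependent kinases high and hold on to a matrix of their own making. On activation, as after an injury, they copy their DNA, make histones to pack it and divide before they differentiate. Myoblasts that leave the cycle for good instead switch on contractile proteins and fuse, so muscle genes mark differentiation.

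Estimated depth was 2.77e+07 to 3.34e+07 reads per library. Between 11281 and 11494 genes reached 1 FPKM in the activated libraries, and 11711 to 11978 in the quiescent ones. The first principal component of the 6 libraries held 66.2% of the variance and separated the states. Genes of the mitochondrial genome made up 8.82, 10.5 and 5.85% of the protein-coding FPKM sum in activated replicates 1 to 3, against 11.0, 12.4 and 11.8% in quiescent replicates 1 to 3. Of 7 myoblast markers, Pax3 and Pax7 stayed under 0.1 FPKM in all 6 libraries, and 3 of the 5 tested were lower (Myod1 -1.38, Itga7 -1.54 and Cdh15 -1.79, log2 fold change of activated over quiescent), while Des and Myf5 were not called. The intermediate filament gene Des was at 198, 85.0 and 164 FPKM in activated libraries, against 117, 162 and 189.8 FPKM in quiescent ones, with overlapping groups. The myogenic factor Myf5 was at 12.9, 11.7 and 13.9 FPKM in activated and 12.5, 11.6 and 7.13 FPKM in quiescent libraries. Under 0.1 FPKM in every library were markers of fat (Adipoq, Plin1, Cidec), bone (Ibsp, Sp7), cartilage (Col2a1, Acan, Comp) and vessel (Cdh5, Kdr, Tek). So were markers of blood (Ptprc, Cd3e, Adgre1), epithelium (Epcam, Cdh1, Krt18), nerve (Rbfox3, Sox10) and smooth muscle (Myh11). Every other member of these lists reached 0.1 FPKM in at least 1 library. Of 6 fat markers Pparg was higher (1.20) and Cebpa lower (-1.28), and the list summed to 15.3, 14.3 and 16.4 FPKM in activated replicates 1 to 3, against 15.8, 16.1 and 19.9 FPKM in quiescent replicates 1 to 3. Runx2 of the bone list and Sox9 of the cartilage list were between 6.52 and 18.98 FPKM and not called. Of 4 smooth muscle markers Acta2 and Tagln were lower (-1.14 and -1.56), and the list summed to 1564, 1248 and 676 FPKM in activated, against 2572, 2365 and 2534 FPKM in quiescent replicates 1 to 3. The part of other cell types in the results was not tested. The 6 markers of differentiating muscle (Myog, Mymk, Myh3, Ckm, Acta1 and Tnnt3) summed to 50.4, 35.3 and 39.2 FPKM in activated replicates 1 to 3, against 131, 737 and 860 FPKM in quiescent replicates 1 to 3. Quiescent replicate 1 thus held less of these transcripts than the other quiescent libraries, and fits without it are given below for some lists.

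Activation went with a broad change of the transcriptome, with division genes up and matrix and muscle genes down. Genes were called with limma on log2(FPKM + 1) values where the p-value, adjusted for 11742 tests after Benjamini and Hochberg, was below 0.05. The filter let 196 genes in through quiescent libraries alone, which could only be lower, and 51 through activated libraries alone, which could only be higher. Of the other 11495 genes, 1154 were higher and 1683 lower. By the rule above 1198 genes were higher in activated than in quiescent cells, 10.2% of those tested, and 1850 were lower, 15.8%. At least 2-fold changes were seen in 477 of the higher and 793 of the lower genes. The activated libraries all lay above the quiescent ones for 2115 genes (18.0%), and all below for 3095 (26.4%). Over all genes the median log2 fold change was -0.10. The split between the directions depended on the scale of the libraries. It was 1722 higher and 1589 lower with median-of-ratios scaling, and 1541 and 1434 with quantile normalization. It was 553 and 2393, with a median of -0.29 over all genes, when libraries were brought to equal sums without 4 short RNAs (Rn7s1, Rn7s2, Rn7sk and Rmrp) that filled 75.4 to 80.2% of each FPKM sum. Without quiescent replicate 2 the counts were 454 higher and 779 lower, without activated replicate 1 they were 749 and 1094, and without quiescent replicate 3 the higher genes numbered 801. None of the 3048 called genes changed sign when a library was left out. Where the 2 groups of a gene do not overlap, leaving out 1 library cannot change its sign. In bulk RNA, fewer cells of a kind and less RNA per cell cannot be told apart. Fold changes below are log2, activated over quiescent, ± SE, and adjusted p-values are those of limma.

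**Figure D1:**
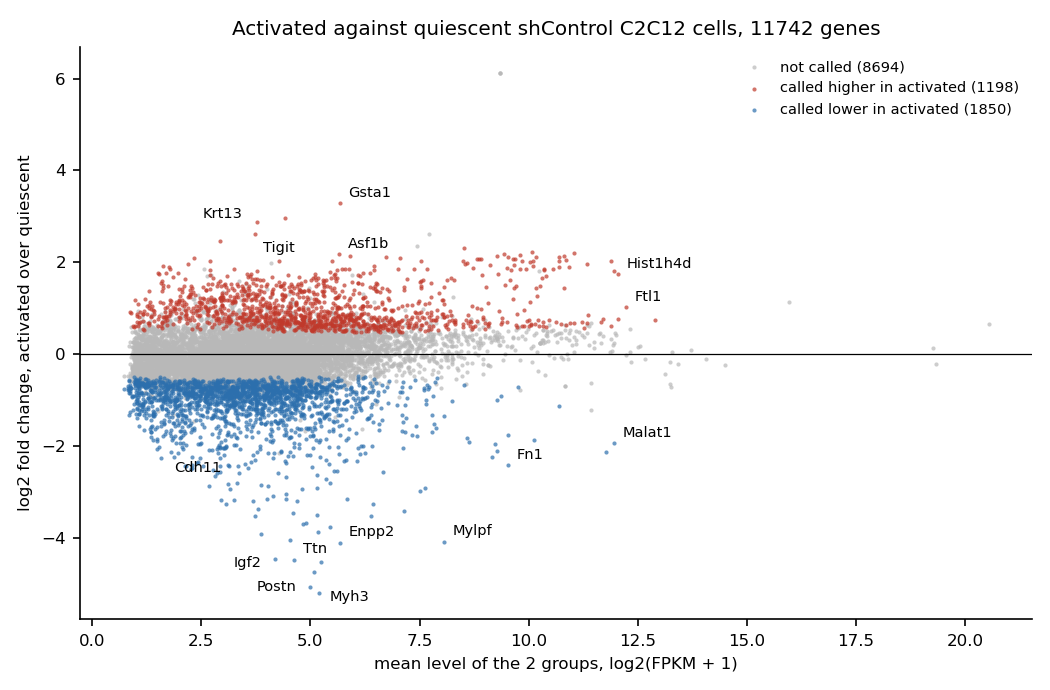
Log2 fold change of activated over quiescent shControl cells (vertical axis) against the mean level of the 2 groups in log2(FPKM + 1) (horizontal axis), 1 point per gene for 11742 genes, with called genes in red (higher) and blue (lower). The deepest falls, such as Myh3 and Postn, reach below -5, while the histone genes form a cloud near 2 at high levels. The grey point at 6.12 stands for 3 U2 RNA copies with equal values (Gm24950, Gm23849 and Rnu2-10), which were not called (adjusted p 0.0506, limma; 4.13e-06 with the replicate block and 7.85e-09 without quiescent replicate 1).

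Promoters of the cell division genes are shown first, because letters known from cell cycle control recur in them. The CHR (letters TTTGAA, or TTCAAA where it lies on the other strand) and the CCAAT box (CCAAT or ATTGG) are elements found in promoters of genes of the G2 and M phases, where the MuvB complex and NF-Y bind. A strongly called member of each of 4 lists (histones, origin licensing, mitotic kinesins, kinetochore) is given as the RefSeq window of 300 bases around the start (250 before, 50 after; GRCm38.p6, read 5′ to 3′ along the gene, capitals marking CHR and CCAAT matches, which do not overlap each other). Hist1h2bp, H2bc22 in RefSeq, lies at chr13:21787238-21787537 on the plus strand, Mcm5 at chr8:75109259-75109558 (plus), Kif22 at chr7:127042371-127042670 (minus) and Cenpm at chr15:82244287-82244586 (minus).
Hist1h2bp: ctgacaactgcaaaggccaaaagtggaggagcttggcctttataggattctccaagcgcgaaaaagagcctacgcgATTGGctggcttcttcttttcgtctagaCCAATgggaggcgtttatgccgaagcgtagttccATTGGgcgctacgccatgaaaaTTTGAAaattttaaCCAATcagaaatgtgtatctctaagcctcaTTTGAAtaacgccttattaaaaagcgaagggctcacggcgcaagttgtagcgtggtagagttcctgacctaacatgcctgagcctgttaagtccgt
Mcm5: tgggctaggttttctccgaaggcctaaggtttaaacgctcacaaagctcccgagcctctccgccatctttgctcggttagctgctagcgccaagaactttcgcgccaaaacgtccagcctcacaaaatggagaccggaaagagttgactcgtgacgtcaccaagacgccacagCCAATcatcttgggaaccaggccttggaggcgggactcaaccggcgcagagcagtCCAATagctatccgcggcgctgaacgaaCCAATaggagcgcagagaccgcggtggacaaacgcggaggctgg
Kif22: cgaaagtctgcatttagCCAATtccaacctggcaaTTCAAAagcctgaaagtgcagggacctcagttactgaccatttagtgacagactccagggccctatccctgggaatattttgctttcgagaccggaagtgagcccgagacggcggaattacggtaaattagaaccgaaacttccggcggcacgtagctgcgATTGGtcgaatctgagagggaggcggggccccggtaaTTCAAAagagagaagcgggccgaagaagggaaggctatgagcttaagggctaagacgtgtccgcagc
Cenpm: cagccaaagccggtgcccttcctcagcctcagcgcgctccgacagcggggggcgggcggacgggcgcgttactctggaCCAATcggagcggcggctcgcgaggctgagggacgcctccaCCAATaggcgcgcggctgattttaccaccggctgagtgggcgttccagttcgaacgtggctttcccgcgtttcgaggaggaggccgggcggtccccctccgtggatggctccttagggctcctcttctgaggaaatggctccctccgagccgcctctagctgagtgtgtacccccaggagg

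The window of Hist1h2bp held 2 CHR and 4 CCAAT matches, that of Kif22 2 and 2, that of Mcm5 no CHR and 3 CCAAT, and that of Cenpm no CHR and 2 CCAAT. A window was in the table for 8920 of the 11742 genes, and 11.9% of these held a CHR and 39.8% a CCAAT match. Among the 940 higher genes with a window, 20.5% held a CHR and 49.1% a CCAAT match, against 8.52 and 38.0% of the 1338 lower genes. CHR matches were in 10 of 13 windows of mitotic kinesins, 16 of 35 of kinetochore genes and 25 of 55 of histone genes, but in 2 of 46 of replication checkpoint and repair genes. A match says only that the letters are there.

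Histone genes rose as a group. Replication-dependent histone genes, which supply the proteins that pack newly copied DNA, had 58 of 61 tested members higher and 0 lower, with a median log2 fold change of 1.89 against -0.10 for all genes. Their summed level was 108300, 100600 and 71350 FPKM in activated replicates 1 to 3, against 27220, 19970 and 28240 FPKM in quiescent replicates 1 to 3, a ratio of means of 3.72. They made up 14.9, 13.2 and 10.4% of the FPKM of protein-coding genes in activated libraries, against 4.80, 3.47 and 4.58% in quiescent ones. Activated replicate 3 was the lowest of its group in both measures, yet lay far above every quiescent library.

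Within the histone family the core classes had similar ratios. The ratio of summed means was 4.06 for H2B, 3.83 for H4, 3.67 for H2A and 3.66 for H3, and 2.69 for the linker histones H1, of which 4 of 5 were called. Hist1h1b was at 1454, 1335 and 862 FPKM in activated libraries, against 374, 265 and 372 FPKM in quiescent ones (log2 1.83 ± 0.24). Hist1h2bp, shown above, was at 183, 173 and 160.4 FPKM in activated and 44.9, 30.4 and 42.8 FPKM in quiescent libraries (log2 2.12 ± 0.18, adjusted p 0.000358). Hist1h4d, among the most abundant members, was at 7336, 7012 and 5252 FPKM in activated libraries, against 1933, 1587 and 2350.1 FPKM in quiescent ones (log2 1.74 ± 0.23). By position, 47 of 49 tested genes of the cluster on chromosome 13 (GRCm38, 21715763 to 23764406) rose, 8 of 9 on chromosome 3 and all 3 elsewhere. Many of these genes are near-identical, so reads may have been shared out among them and the sums are firmer than single genes. Between 56 and 60 members were called in each fit that left out 1 library. Replication-dependent histone transcripts lack a poly(A) tail, and the labels do not say whether poly(A) RNA was selected.

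Chromatin proteins rose in part. In a list of chromatin proteins of dividing cells, 16 of 29 tested members were higher and 2 lower (median 0.96). The histone chaperone Asf1b was at 88.4, 86.7 and 67.1 FPKM in activated and 29.4, 11.4 and 14.6 FPKM in quiescent libraries (log2 2.17 ± 0.30, adjusted p 0.00150). Uhrf1, which brings the maintenance DNA methyltransferase to newly copied DNA, was at 70.7, 69.7 and 70.2 FPKM in activated libraries, against 33.6, 17.4 and 13.96 FPKM in quiescent ones (log2 1.75 ± 0.28). Hmga1, an architectural chromatin protein, was at 274, 343 and 347 FPKM in activated and 104, 107 and 116 FPKM in quiescent libraries (log2 1.55 ± 0.16). The variant histone gene H2afx was at 413, 324 and 216 FPKM in activated libraries, against 97.1, 74.5 and 83.7 FPKM in quiescent ones (log2 1.85 ± 0.24). In all 4 the groups stayed apart, and for Asf1b and Uhrf1 quiescent replicate 1 was the highest of its group. The counts were 9 higher and 0 lower without quiescent replicate 2, and 1 was lower without activated replicate 1 or quiescent replicate 3. Without quiescent replicate 1, 21 were higher and 2 lower, with a median of 1.22.

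Genes that start DNA replication and make its building blocks were higher in activated cells. In origin licensing and firing, 22 of 29 members rose and 0 fell (median 1.23), including all 6 subunits of the Mcm2 to Mcm7 helicase (1.19 to 1.78) and 4 of 5 of GINS and Cdc45, which complete it. Mcm5 was at 71.2, 67.2 and 59.6 FPKM in activated and 25.7, 15.6 and 15.5 FPKM in quiescent libraries (log2 1.78 ± 0.22, adjusted p 0.000913). Gmnn, the inhibitor that keeps origins from being licensed again, was at 40.9, 52.3 and 27.1 FPKM in activated libraries, against 14.9, 10.9 and 9.09 FPKM in quiescent ones (log2 1.68 ± 0.26). In nucleotide synthesis, 17 of 32 members rose and 0 fell (median 0.89), with 9 with equal sums without the 4 short RNAs and 10 without either quiescent replicate 2 or 3. Dut, which removes dUTP, was at 37.6, 42.1 and 51.5 FPKM in activated and 17.5, 16.2 and 14.3 FPKM in quiescent libraries (log2 1.39 ± 0.18). Tyms, which makes dTMP, was at 54.0, 71.2 and 45.7 FPKM in activated libraries, against 24.4, 21.6 and 15.0 FPKM in quiescent ones (log2 1.45 ± 0.23). Rrm2, the small subunit of ribonucleotide reductase, was at 147, 166 and 88.8 FPKM in activated and 59.7, 36.8 and 21.2 FPKM in quiescent libraries (log2 1.82 ± 0.35). The groups did not overlap in any of these 5 genes.

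Replication fork, checkpoint and repair genes were higher too. Of 56 members, 35 rose and 0 fell (median 0.92), with 20 without quiescent replicate 2 and 23 without quiescent replicate 3. Pold2, a subunit of DNA polymerase delta, was at 50.8, 44.8 and 53.2 FPKM in activated libraries, against 16.7, 18.7 and 23.9 FPKM in quiescent ones (log2 1.30 ± 0.18). Rpa2, a subunit of the single-strand binding protein, was at 26.1, 31.1 and 17.2 FPKM in activated and 9.59, 8.09 and 7.49 FPKM in quiescent libraries (log2 1.42 ± 0.23). For both, every activated library exceeded every quiescent one.

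Genes of the mitotic spindle and kinetochore were higher as well, but with a quiescent group that was not uniform. Among 14 mitotic kinesins, the motors that build and move along the spindle, 11 rose and 0 fell (median 1.39). Kif22, which pushes chromosome arms, was at 37.5, 34.2 and 30.6 FPKM in activated libraries, against 17.7, 9.77 and 8.5 FPKM in quiescent ones (log2 1.49 ± 0.25, adjusted p 0.00374). Kif2c, which takes microtubules apart at centromeres, was at 32.3, 33.9 and 23.2 FPKM in activated and 15.7, 7.89 and 6.46 FPKM in quiescent libraries (log2 1.55 ± 0.30). For both, quiescent replicate 1 lay above the other quiescent libraries and below every activated one.

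In the centromere and kinetochore list 29 of 40 members rose and 0 fell (median 1.20). Cenpa, the histone variant that marks centromeres, was at 78.9, 98.5 and 60.2 FPKM in activated libraries, against 36.5, 23.7 and 22.4 FPKM in quiescent ones (log2 1.50 ± 0.24). Spc24, a subunit of the Ndc80 complex, was at 33.4, 34.0 and 31.5 FPKM in activated and 14.04, 10.7 and 11.7 FPKM in quiescent libraries (log2 1.38 ± 0.17, adjusted p 0.000983). Relative to the quiescent mean, the mean log2 level of the kinetochore list was 1.13, 1.41 and 0.79 in activated replicates 1 to 3, against 0.52, -0.09 and -0.43 in quiescent replicates 1 to 3. Without activated replicate 1, or quiescent replicate 2 or 3, the higher kinetochore genes numbered 13, and without activated replicate 2 they numbered 16. Without quiescent replicate 1 they numbered 34, with a median of 1.50. With equal sums 18 kinetochore genes and 6 kinesins were higher. For the kinesins the counts were 6 without activated replicate 1 or quiescent replicate 2 or 3, and 5 without activated replicate 2. Without quiescent replicate 1, 13 kinesins were higher, with a median of 1.79.

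Complexes that shape chromosomes did not move as one. In a subset of condensin, which compacts chromosomes in mitosis, 5 of 8 members rose (median 1.13), whereas of 9 cohesin subunits, loaders and release factors, which hold sister chromatids together, 0 rose and 1 fell (median -0.28). Ncapd2 of condensin I was at 33.5, 30.1 and 35.3 FPKM in activated libraries, against 21.6, 13.7 and 11.3 FPKM in quiescent ones (log2 1.08 ± 0.23). Pttg1, the securin that keeps separase in check until anaphase, was at 149, 162 and 99.0 FPKM in activated and 57.0, 44.7 and 37.8 FPKM in quiescent libraries (log2 1.52 ± 0.23). Nipbl, the cohesin loader, was the lower gene, at 9.39, 12.4 and 13.0 FPKM in activated libraries, against 23.5, 19.8 and 16.7 FPKM in quiescent ones (log2 -0.74 ± 0.20, adjusted p 0.0255), and lost its call without activated replicate 1 or quiescent replicate 1 or 2 (adjusted p 0.1001, 0.0812 and 0.104). In the whole list of 22 condensin, cohesin and related genes 9 rose, with 5 with equal sums, 4 without activated replicate 1 or quiescent replicate 2 and 5 without quiescent replicate 3.

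Controls of G1 changed in part. Of 22 cyclins, kinases and E2F factors of G1 and S, 7 rose and 0 fell (median 0.60; 11 higher after quantile normalization and 13 after median-of-ratios scaling; 1 lower without activated replicate 2 or quiescent replicate 3). Ccne1, the cyclin E that triggers S phase, was at 20.1, 18.7 and 10.3 FPKM in activated and 7.71, 4.08 and 4.34 FPKM in quiescent libraries (log2 1.44 ± 0.29). Mybl2, the Myb factor that joins the MuvB complex, was at 11.8, 12.1 and 17.0 FPKM in activated libraries, against 5.76, 4.82 and 2.21 FPKM in quiescent ones (log2 1.52 ± 0.29). In both genes the groups were apart. Cdk4, the partner of cyclin D, was at 237, 265 and 263 FPKM in activated and 198, 193 and 186 FPKM in quiescent libraries (log2 0.40 ± 0.15, adjusted p 0.0703, not called, but 0.0381 with median-of-ratios scaling).

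Of 20 tested brakes of the cycle, 6 were lower and 2 higher (median -0.26), with 2 lower without quiescent replicate 2, and 0 higher without activated replicate 1 or 2 or quiescent replicate 2 or 3. The 6 and 2 are 30.0 and 10.0% of these brakes, beside 15.8% lower and 10.2% higher among all genes. Ccng2, an unusual cyclin that slows the cycle, was at 7.55, 4.95 and 8.62 FPKM in activated libraries, against 18.0, 18.7 and 17.9 FPKM in quiescent ones (log2 -1.28 ± 0.21). Cdkn1b, the inhibitor p27, was at 22.2, 21.7 and 23.8 FPKM in activated and 41.8, 41.6 and 36.9 FPKM in quiescent libraries (log2 -0.80 ± 0.16, adjusted p 0.00670, and 0.052 without quiescent replicate 2). Gas1, named for its expression in growth-arrested cells, was at 80.6, 29.5 and 54.7 FPKM in activated libraries, against 107, 154 and 166 FPKM in quiescent ones (log2 -1.45 ± 0.33). All 3 were lower in every activated library than in any quiescent one.

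**Figure D2:**
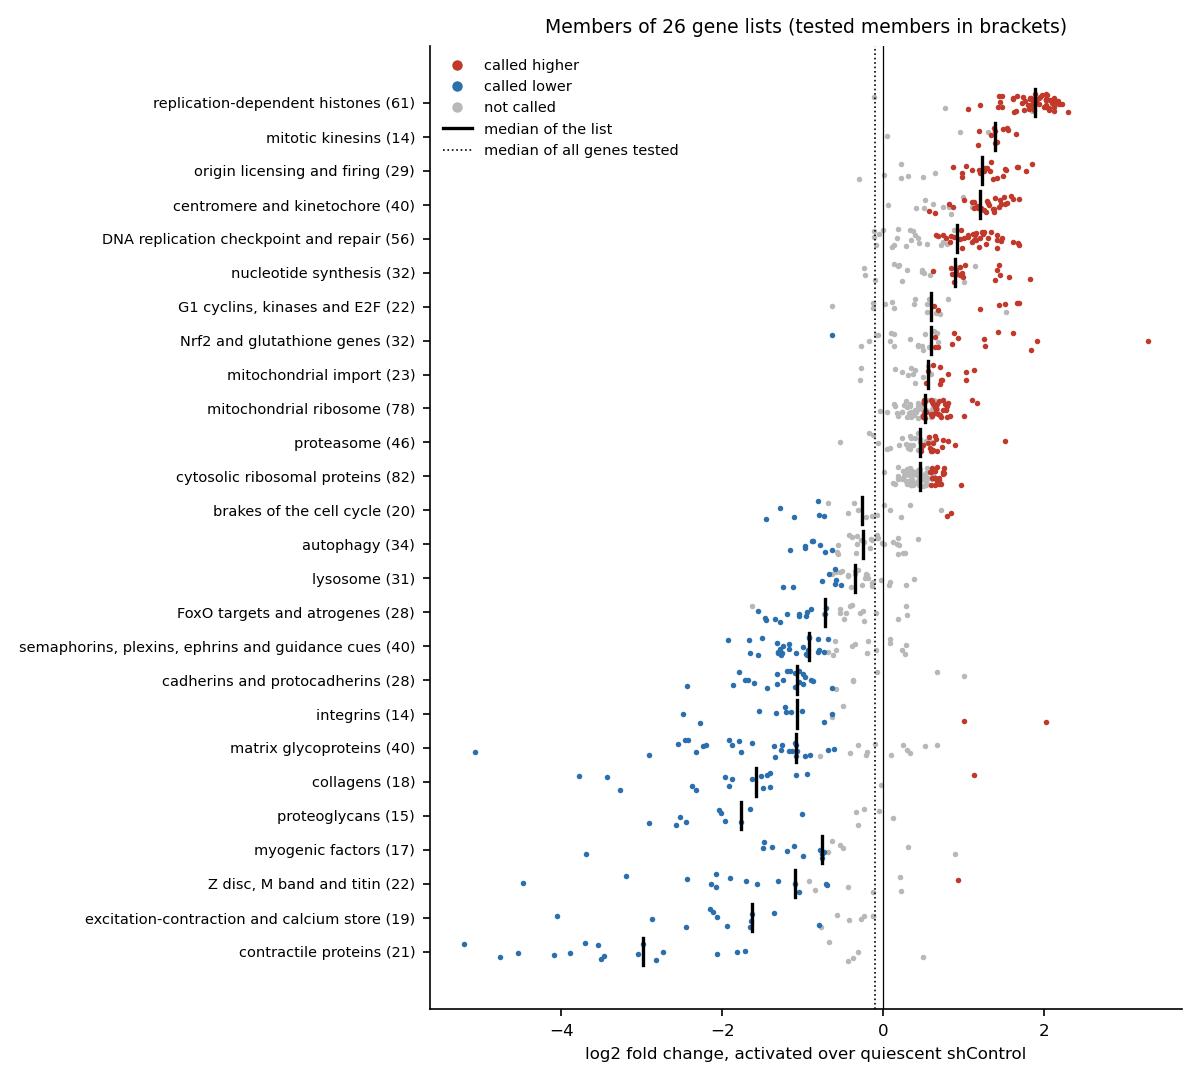
Log2 fold changes, activated over quiescent shControl cells, of the tested members of 26 gene lists, 1 point per gene (red called higher, blue called lower, grey not called), with the list median as a black bar and the median of all 11742 genes as a dotted line. Histones sit tightly near 1.89, the ribosome and proteasome lists close to 0.5, and the contractile proteins spread from 0.50 down to -5.21 with a median of -2.99.

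Genes of the nuclear envelope and of nuclear transport changed in part. Of 26 nuclear pore genes 8 rose and 0 fell (median 0.35), with 3 with equal sums, 3 without quiescent replicate 2 and 5 without quiescent replicate 3. Aaas, a pore component, was at 48.5, 41.7 and 50.5 FPKM in activated and 19.7, 16.7 and 16.8 FPKM in quiescent libraries (log2 1.35 ± 0.17, adjusted p 0.000982). In the nuclear lamina list of 13 genes 4 rose and 2 fell, with 2 higher and 3 lower with equal sums, 2 higher and 0 lower without quiescent replicate 2, 0 lower without quiescent replicate 3 and 1 lower without activated replicate 1 or quiescent replicate 1. The 2 lower genes are 15.4% of the list, near the 15.8% of all genes. Lmnb1, the B-type lamin, was at 44.9, 50.6 and 40.4 FPKM in activated libraries, against 29.3, 18.1 and 13.1 FPKM in quiescent ones (log2 1.20 ± 0.26). Lmna, the A-type lamin of differentiated cells, was at 787, 581 and 698 FPKM in activated and 537, 524 and 560.0 FPKM in quiescent libraries (log2 0.34 ± 0.17, adjusted p 0.167, not called). Rangap1, which drives the Ran cycle of nuclear transport, was at 84.9, 85.2 and 70.1 FPKM in activated libraries, against 43.5, 31.4 and 30.9 FPKM in quiescent ones (log2 1.17 ± 0.19), 1 of 5 higher genes among 26 importins, exportins and Ran factors. The 5 are 19.2% of that list, beside 10.2% higher among all genes. The median of that list, 0.14, turned to -0.06 with equal sums and to -0.01 without quiescent replicate 3.

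Genes of the tubulin cytoskeleton rose in 9 of 18 members (median 0.56), and 0 fell. Tuba1b, an abundant alpha tubulin, was at 1737, 1956 and 1375 FPKM in activated and 676, 558 and 625 FPKM in quiescent libraries (log2 1.43 ± 0.19). Stmn1, which takes microtubules apart, was at 189, 218 and 205 FPKM in activated libraries, against 112, 67.6 and 52.4 FPKM in quiescent ones (log2 1.46 ± 0.25). Every activated library exceeded the highest quiescent one in both.

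Machinery for making proteins shifted by small steps. In the mitochondrial ribosome, 37 of 78 members rose and 0 fell (median 0.52). The count depended on scaling, with 5 higher with equal sums without the 4 short RNAs, 32 with quantile normalization and 53 with median-of-ratios scaling. Mrpl12 was at 146, 168 and 143 FPKM in activated and 63.6, 62.4 and 76.5 FPKM in quiescent libraries (log2 1.17 ± 0.16, adjusted p 0.00150). Mrps25 was at 44.2, 48.5 and 41.3 FPKM in activated libraries, against 20.2, 19.7 and 20.2 FPKM in quiescent ones (log2 1.11 ± 0.16). The higher members numbered 6 without quiescent replicate 2, 12 without activated replicate 1, 18 without quiescent replicate 1 and 24 without activated replicate 2, with medians of 0.48 to 0.58.

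Of 82 cytosolic ribosomal protein genes, 20 rose and 0 fell, but their median of 0.46 became -0.05 with quantile normalization, where 2 rose and 1 fell, and 5 rose with equal sums. The 20 are 24.4% of the list, beside 10.2% higher among all genes. Rps27l, also a target of p53, led with 629, 665 and 617 FPKM in activated and 304, 289 and 391 FPKM in quiescent libraries (log2 0.97 ± 0.17). The count ran between 1 without quiescent replicate 2 and 37 without quiescent replicate 3, and was 5, 7, 11 and 4 without activated replicates 1, 2 and 3 and quiescent replicate 1 in that order. The mean level of the list was 0.27 in quiescent replicate 3, against -0.21 and -0.05 in quiescent replicates 1 and 2, so that the group itself was spread.

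Genes of mitochondrial import and protein turnover rose in part. In mitochondrial import, 11 of 23 members rose (median 0.56; 3 with equal sums; 3 without quiescent replicate 2, and 7 without activated replicate 1 or quiescent replicate 3). Timm50, a receptor of the inner membrane channel, was at 35.8, 34.4 and 40.7 FPKM in activated libraries, against 16.9, 16.3 and 19.7 FPKM in quiescent ones (log2 1.03 ± 0.17). Of 46 tested genes with names of the proteasome family 18 rose and 0 fell (median 0.46), with 3 higher and 1 lower with equal sums, 10 higher with quantile normalization, 27 with median-of-ratios scaling, 1 without quiescent replicate 2, 10 without activated replicate 1, and 11 without activated replicate 2 or quiescent replicate 1 or 3. These include Psmc3ip, which is known as a partner of Dmc1 in meiotic recombination and is no proteasome subunit, and without it 17 of 45 rose (median 0.46). Psmc3ip, the gene with the smallest p among the 46, was at 20.8, 22.9 and 13.5 FPKM in activated and 7.28, 5.77 and 4.82 FPKM in quiescent libraries (log2 1.51 ± 0.24). Eif5a, a translation factor for stretches of proline codons, was at 774, 886 and 875 FPKM in activated libraries, against 446, 404 and 475 FPKM in quiescent ones (log2 0.93 ± 0.16), in a list of initiation and elongation factors of which 13 of 62 rose and 2 fell (2 and 2 with equal sums, 6 and 2 with quantile normalization, 2 and 0 without quiescent replicate 2, 6 and 0 without activated replicate 1, 8 and 1 without quiescent replicate 1, and 1 lower without quiescent replicate 3). Hspe1, the mitochondrial co-chaperonin, was at 462, 537 and 500.1 FPKM in activated and 279.8, 274 and 283 FPKM in quiescent libraries (log2 0.84 ± 0.15). Cct7 of the cytosolic chaperonin was at 176, 212 and 226 FPKM in activated libraries, against 118, 112 and 117 FPKM in quiescent ones (log2 0.81 ± 0.16). The groups were apart in each of these 5 genes.

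RNA processing genes were divided by kind. Of 12 Sm and other proteins of the small nuclear ribonucleoproteins, the core of the spliceosome, 9 rose (median 0.74), whereas of 30 tested SR and hnRNP proteins, which steer splice site choice, 3 rose and 1 fell (median 0.23). The 3 of 30 are near the 10.2% of all genes that rose. Snrpa1 was at 40.1, 48.2 and 48.4 FPKM in activated and 24.9, 18.9 and 18.6 FPKM in quiescent libraries (log2 1.10 ± 0.18). Snrpf was at 148, 205 and 163 FPKM in activated libraries, against 92.7, 88.9 and 74.1 FPKM in quiescent ones (log2 1.00 ± 0.18). In the whole splicing list 12 of 42 rose, with 5 with equal sums and 4 without quiescent replicate 2. These subsets were chosen after values had been seen.

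Amino acid genes were set apart by activated replicate 3. The mean log2 level of 22 aminoacyl-tRNA synthetase genes was 0.27, 0.21 and 1.10 in activated replicates 1 to 3, relative to the quiescent mean, and 3 of them rose (1 with equal sums, 5 with median-of-ratios scaling, and 1 when any one of the quiescent libraries was left out). Amino acid transporters were at -0.35, -0.62 and 0.37 in the same libraries, and 5 of 19 fell (3 after quantile normalization, 2 after median-of-ratios scaling, 3 without activated replicate 1 or 2 or quiescent replicate 3, and 1 without quiescent replicate 2). The 3 higher synthetases are 13.6% of their list, beside 10.2% higher among all genes. The 5 lower transporters are 26.3% of theirs, beside 15.8% lower among all genes. Slc7a5, the exchanger that brings in leucine, was at 27.4, 14.4 and 102 FPKM in activated and 18.9, 20.3 and 25.6 FPKM in quiescent libraries (log2 0.67 ± 0.55, adjusted p 0.387, not called), so that activated replicate 3 stood above the other 5 libraries. Slc7a2, a carrier of arginine and lysine, was at 0.82, 0.38 and 1.65 FPKM in activated libraries, against 5.04, 6.55 and 4.76 FPKM in quiescent ones (log2 -1.77 ± 0.25) and kept the groups apart.

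Genes of redox defence rose in part, while hypoxia and glycolysis genes did not move together. Of 32 tested Nrf2 target and glutathione genes 13 rose and 1 fell (median 0.60), with 8 higher and 1 lower with equal sums, 8 higher and 0 lower without quiescent replicate 2 or 3 and 0 lower without activated replicate 2. Gsta1, a glutathione transferase, had one of the largest rises of all genes, at 71.7, 165 and 39.9 FPKM in activated and 11.1, 9.64 and 3.07 FPKM in quiescent libraries (log2 3.29 ± 0.52, adjusted p 0.00266). Gm3776, a near-identical copy whose reads cannot be separated with certainty, was at 32.1, 69.3 and 11.6 FPKM in activated libraries, against 5.06, 3.67 and 1.16 FPKM in quiescent ones (log2 2.97 ± 0.57). Gsto1, another glutathione transferase, was more even, at 241, 366 and 255 FPKM in activated and 88.7, 95.7 and 90.7 FPKM in quiescent libraries (log2 1.61 ± 0.19, adjusted p 0.000811). Nqo1, a quinone reductase and classic Nrf2 target, was at 119, 237 and 64.8 FPKM in activated libraries, against 40.1, 34.8 and 22.8 FPKM in quiescent ones (log2 1.91 ± 0.40). Activated replicate 2 was the highest library for all 4. Hmox1, which breaks down haem, was at 26.1, 23.6 and 143 FPKM in activated and 55.4, 46.1 and 40.2 FPKM in quiescent libraries (log2 -0.06 ± 0.56, not called; -0.89, adjusted p 0.0106, without activated replicate 3), with activated replicate 3 above the rest.

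Of 17 hypoxia targets 7 were lower and 1 higher (median -0.48). P4ha1, a prolyl hydroxylase of collagen, was at 18.0, 20.2 and 24.8 FPKM in activated libraries, against 46.2, 51.1 and 43.6 FPKM in quiescent ones (log2 -1.13 ± 0.18). Higd1a, a protein of the inner mitochondrial membrane, was the higher one, at 38.2, 46.4 and 35.1 FPKM in activated and 22.1, 20.5 and 20.3 FPKM in quiescent libraries (log2 0.89 ± 0.17). Of 30 glycolysis genes 5 rose and 5 fell (median -0.16; 1 and 6 with equal sums, 3 and 3 with quantile normalization, 7 and 3 with median-of-ratios scaling, 0 and 2 without quiescent replicate 2, 2 and 3 without activated replicate 1, and 3 lower without quiescent replicate 3). Each count is 16.7% of the 30, beside 10.2% higher and 15.8% lower among all genes. Through quiescent libraries alone 2 passed the filter, and of the other 28, 5 rose and 3 fell. The list summed to 8985, 8303 and 8643 FPKM in activated replicates 1 to 3, against 5708, 5958 and 6533 FPKM in quiescent replicates 1 to 3. All protein-coding genes summed to 727200, 759900 and 686600 FPKM in activated, against 567500, 576100 and 616700 FPKM in quiescent libraries. Of the 4 glycolysis genes with the smallest p, Pgk1 was higher and Eno2, Slc2a3 and Pgam2 were lower. Eno2, the neuronal enolase, was at 11.0, 8.86 and 11.7 FPKM in activated libraries, against 20.7, 29.3 and 29.6 FPKM in quiescent ones (log2 -1.25 ± 0.20).

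Catabolic genes were lower in part. Of 28 tested FoxO targets and atrogenes, genes that FoxO factors raise when growth signals fall, 13 were lower and 0 higher (median -0.72; 8 without quiescent replicate 2). The filter let 1 of the 28 in through quiescent libraries alone, which could only be lower, and of the other 27, 12 were lower (median -0.71). Fbxo32, the ubiquitin ligase atrogin of wasting muscle, was at 2.91, 2.69 and 4.59 FPKM in activated and 9.8, 14.1 and 9.54 FPKM in quiescent libraries (log2 -1.47 ± 0.23, adjusted p 0.00279). Insr, the insulin receptor, was at 5.69, 4.37 and 7.13 FPKM in activated libraries, against 13.3, 14.6 and 14.6 FPKM in quiescent ones (log2 -1.19 ± 0.20). Sesn1, a sestrin that restrains mTORC1, was at 7.65, 7.72 and 5.82 FPKM in activated and 14.1, 16.8 and 15.7 FPKM in quiescent libraries (log2 -1.04 ± 0.19). None of the 3 had overlapping groups.

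In autophagy 8 of 34 members fell and 0 rose (median -0.25), and in the lysosome 8 of 31 fell and 0 rose (median -0.35; 14 lower after quantile normalization and 3 after median-of-ratios scaling). These are 23.5 and 25.8% of the tested members, beside 15.8% of all genes, and most members were not called. Nbr1, a cargo receptor, was at 16.1, 15.3 and 20.6 FPKM in activated libraries, against 34.2, 38.1 and 32.1 FPKM in quiescent ones (log2 -0.97 ± 0.18). Gaa, the lysosomal enzyme that digests glycogen, was at 29.0, 16.7 and 39.1 FPKM in activated and 58.1, 67.1 and 70.8 FPKM in quiescent libraries (log2 -1.25 ± 0.27). The autophagy count was 3 without activated replicate 1 or quiescent replicate 2 and 5 without activated replicate 2. The lysosome count was 2 without activated replicate 1 or quiescent replicate 2 and 5 without activated replicate 2 or quiescent replicate 1. Of 15 clock genes 5 fell and 0 rose (median -0.37; 1 without activated replicate 1 or quiescent replicate 2, 2 without quiescent replicate 3, and 3 without activated replicate 2 or quiescent replicate 1). The 5 are 33.3% of the clock list, beside 15.8% lower among all genes. The repressor Bhlhe41 was at 13.4, 11.1 and 11.0 FPKM in activated libraries, against 27.8, 28.4 and 22.8 FPKM in quiescent ones (log2 -1.09 ± 0.18).

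Motifs known from muscle promoters were counted in the same way. The E-box (CANNTG on either strand) is bound by Myod1 and Myog, and the MEF2 site by Mef2 factors. The CArG box is CC, a run of A or T, and GG. The windows of Myh3, the embryonic myosin heavy chain and most strongly called contractile gene, and of Ttn, the giant protein titin, are shown in the same form, with E-box, CArG box and MEF2 matches in capitals, which do not overlap. Myh3 lies at chr11:67078050-67078349 on the plus strand and Ttn at chr2:76982498-76982797 (minus).
Myh3: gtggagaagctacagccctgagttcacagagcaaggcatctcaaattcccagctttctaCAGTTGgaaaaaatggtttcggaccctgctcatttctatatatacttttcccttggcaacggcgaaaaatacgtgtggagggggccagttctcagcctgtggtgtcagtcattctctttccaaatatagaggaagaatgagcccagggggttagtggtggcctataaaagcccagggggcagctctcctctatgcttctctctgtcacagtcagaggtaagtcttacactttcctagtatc
Ttn: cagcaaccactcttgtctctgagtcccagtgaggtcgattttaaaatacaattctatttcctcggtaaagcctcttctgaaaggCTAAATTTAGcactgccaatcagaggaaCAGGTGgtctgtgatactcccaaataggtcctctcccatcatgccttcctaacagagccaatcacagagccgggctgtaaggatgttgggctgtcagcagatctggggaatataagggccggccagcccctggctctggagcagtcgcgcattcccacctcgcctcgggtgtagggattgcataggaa

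The window of Myh3 held 1 E-box, and that of Ttn 1 E-box and 1 MEF2 site. E-boxes were in 62.3% of the windows of lower genes, against 61.5% of all windows. They were in 16 of 18 windows of contractile genes and 11 of 16 of the Z disc list. In coupling and junction genes they were in 7 of 10 and 4 of 5. In the dystrophin list they were in 6 of 10, in fusion genes in 5 of 9 and in myogenic factors in 4 of 13. A CArG box was in 1.37% of all windows and 2.24% of those of lower genes. It was in 2 of 18 windows of contractile genes, 2 of 10 of the dystrophin list and 4 of 55 of histone genes. The Z disc and myogenic factor lists held 1 of 16 and 1 of 13, and the coupling, junction and fusion lists 0. A MEF2 site was in 3 of 16 windows of the Z disc list and 1 of 13 of myogenic factors, against 0.392% of all, and in 0 windows of the contractile, coupling, junction, dystrophin and fusion lists. The window of Ryr1 held none of the 3 motifs, and the first of 3 windows of Mef2c held 2 E-boxes.

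Contractile genes fell in most of the members tested. Of 33 listed genes 21 passed the filter on low values, 16 of them were lower and 0 higher, and the median was -2.99. Of these 21, 2 passed the filter through quiescent libraries alone, Myh3 among them, so that they could only be lower. Of the other 19, 14 were lower, with the same median of -2.99. Myh3 was at 0.09, 0.3 and 0.91 FPKM in activated and 12.1, 104 and 98.1 FPKM in quiescent libraries (log2 -5.21 ± 0.68, adjusted p 0.00114). Actc1, the actin of heart and embryonic muscle, was at 0.9, 0.31 and 1.12 FPKM in activated libraries, against 11.3, 88.4 and 94.6 FPKM in quiescent ones (log2 -4.76 ± 0.66). Of the 8 troponin genes, the calcium switch of the thin filament, 7 fell, among them Tnnt1, at 11.1, 5.4 and 12.3 FPKM in activated and 37.6, 87.9 and 85.9 FPKM in quiescent libraries (log2 -2.73 ± 0.37). In each the lowest quiescent library, replicate 1, still exceeded every activated library. The 3 tropomyosin genes gave no call (-0.44 to 0.50).

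Many structural genes of the sarcomere and of its calcium supply fell. In the Z disc, M band and titin list 14 of 22 tested members of 42 listed fell and 1 rose (median -1.10; 0 higher in the fits without activated replicate 1 or 2 or any one quiescent library). Ttn was at 0.84, 0.41 and 1.85 FPKM in activated libraries, against 21.8, 57.8 and 59.9 FPKM in quiescent ones (log2 -4.48 ± 0.39, adjusted p 0.000358). Neb, the ruler of the thin filament, was at 0.32, 0.2 and 0.27 FPKM in activated and 3.12, 18.3 and 18.2 FPKM in quiescent libraries (log2 -3.19 ± 0.51). In both, quiescent replicate 1 was the lowest of its group and above every activated library. In excitation-contraction coupling 12 of 19 tested members fell and 0 rose (median -1.63). In these lists 6 and 4 members had passed the filter through quiescent libraries alone, Neb and Ryr1 among them, and could only be lower. Of the others 8 of 16 Z disc genes (median -0.98) and 8 of 15 coupling genes (median -0.80) were lower. Ryr1, the calcium release channel, was at 0.19, 0.12 and 0.62 FPKM in activated libraries, against 3.51, 8.5 and 7.15 FPKM in quiescent ones (log2 -2.45 ± 0.29). Atp2a1, the calcium pump of fast fibres, was at 0.51, 0.25 and 2.43 FPKM in activated and 6.67, 57.0 and 65.0 FPKM in quiescent libraries (log2 -4.05 ± 0.73). Ckm, the muscle creatine kinase, was at 0.19, 0.29 and 0.42 FPKM in activated libraries, against 4.09, 33.4 and 42.8 FPKM in quiescent ones (log2 -3.93 ± 0.66). The same order held for these 3 genes. Ckm too had passed the filter through quiescent libraries alone, so that it could only be lower.

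The quiescent libraries differed from each other in these genes. Relative to the quiescent mean, the mean log2 level of the contractile list was -2.72, -2.82 and -2.35 in activated replicates 1 to 3, against -1.21, 0.53 and 0.68 in quiescent replicates 1 to 3. For the Z disc list it was -1.26, -1.53 and -1.10 in activated, against -0.51, 0.33 and 0.18 in quiescent libraries. Quiescent replicate 1 lay between the groups, and it was also the quiescent library with the highest kinesin and kinetochore levels. Without it 17 contractile genes were called, with a median of -3.88, and between 15 and 17 were called without any other library. In the Z disc list 16 were lower without quiescent replicate 1, with a median of -1.35. The part of differentiating cells in the quiescent levels was not tested.

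**Figure D3:**
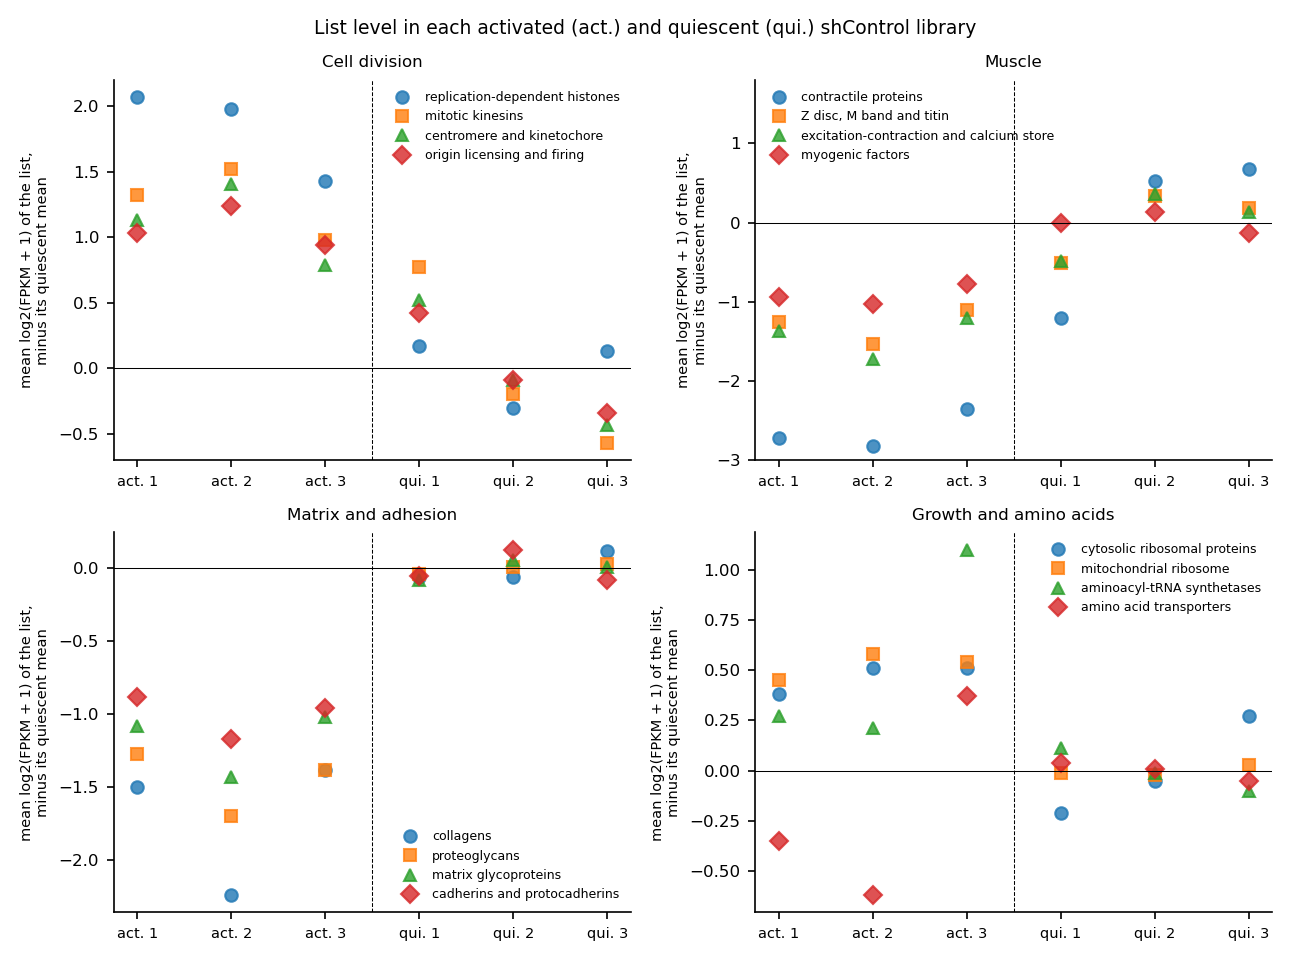
Mean log2(FPKM + 1) of the members of 16 lists in each of the 3 activated and 3 quiescent shControl libraries, minus the quiescent mean of the list, in 4 panels (cell division, muscle, matrix and adhesion, growth and amino acids). Quiescent replicate 1 lies towards the activated libraries for kinesins and contractile proteins, at 0.77 and -1.21, but with the other quiescent libraries for collagens and proteoglycans, and activated replicate 3 stands alone for tRNA synthetases at 1.10.

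Receptors and membrane proteins of muscle were lower as well. At the neuromuscular junction 5 of 8 tested members fell and 0 rose (median -1.11; 3 without quiescent replicate 2). Musk, the kinase that gathers acetylcholine receptors, was at 2.17, 1.42 and 2.38 FPKM in activated and 8.53, 13.5 and 10.6 FPKM in quiescent libraries (log2 -1.99 ± 0.22, adjusted p 0.000741). Its co-receptor Lrp4 was at 6.19, 2.39 and 7.77 FPKM in activated libraries, against 22.8, 32.3 and 29.3 FPKM in quiescent ones (log2 -2.27 ± 0.33). In the dystrophin complex, which ties the cell's actin to the matrix, 8 of 16 tested members fell and 0 rose (median -0.66; 5 without quiescent replicate 2). Dmd, dystrophin itself, was at 0.14, 0.08 and 0.36 FPKM in activated and 2.29, 3.0 and 5.04 FPKM in quiescent libraries (log2 -1.86 ± 0.24). It passed the filter through quiescent libraries alone, and of the other 15 members 7 fell (median -0.6). Dag1 was at 36.0, 26.2 and 38.6 FPKM in activated libraries, against 83.6, 103 and 78.0 FPKM in quiescent ones (log2 -1.37 ± 0.20). For these genes quiescent replicate 1 lay closer to its group than for the contractile ones.

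Fusion and lineage genes varied by member. Mymk, the membrane protein myomaker that drives fusion, was at 2.51, 1.69 and 6.98 FPKM in activated and 13.4, 64.6 and 61.1 FPKM in quiescent libraries (log2 -3.20 ± 0.58). In the fusion list 5 of 17 tested members fell and 0 rose (median -0.49; 3 without quiescent replicate 2). The 5 are 29.4% of the list, beside 15.8% lower among all genes. Among myogenic factors 11 of 17 tested members fell and 0 rose (median -0.76; 6 without quiescent replicate 2, and 1 higher without activated replicate 1 or quiescent replicate 1). Through quiescent libraries alone 2 of these 17 passed the filter, Mef2c among them, and of the other 15, 9 fell (median -0.76). Myog, which drives differentiation, was at 1.57, 1.49 and 6.09 FPKM in activated libraries, against 16.7, 64.5 and 83.6 FPKM in quiescent ones (log2 -3.69 ± 0.58), with quiescent replicate 1 the lowest quiescent library. Mef2a was at 15.2, 20.3 and 20.3 FPKM in activated and 52.4, 63.8 and 45.9 FPKM in quiescent libraries (log2 -1.49 ± 0.19). Mef2c was at 0.69, 0.53 and 0.52 FPKM in activated libraries, against 3.54, 4.04 and 2.72 FPKM in quiescent ones (log2 -1.48 ± 0.18). For each of these genes the activated libraries lay below all 3 quiescent ones. Myod1 was at 15.9, 7.95 and 12.8 FPKM in activated and 21.4, 39.7 and 39.0 FPKM in quiescent libraries (log2 -1.38 ± 0.30), whereas Myf5, given above, was not called (adjusted p 0.326).

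**Figure D4:**
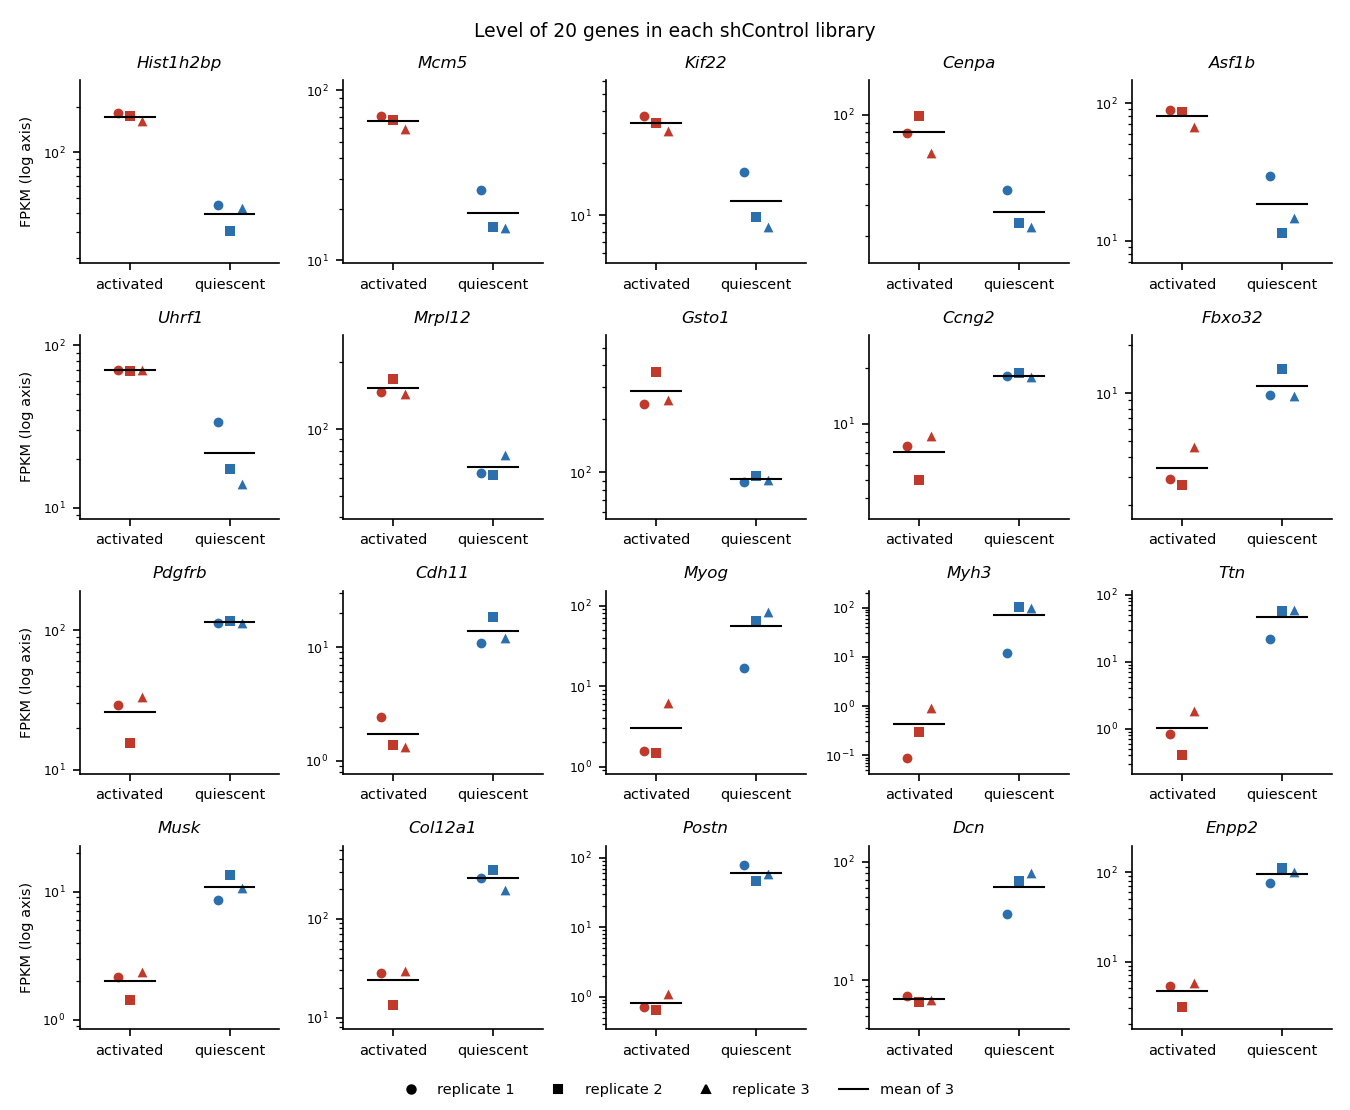
Level of 20 genes in FPKM on a log axis in each shControl library, with activated libraries on the left in red and quiescent ones on the right in blue, symbols for replicates 1 to 3 and a bar at the mean of 3. Uhrf1 reads 70.7, 69.7 and 70.2 FPKM in the activated libraries, against 33.6, 17.4 and 13.96 FPKM in quiescent ones, and Postn 0.72, 0.65 and 1.09 FPKM in activated, against 78.0, 46.3 and 59.1 FPKM in quiescent libraries.

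Matrix genes were lower in activated cells, and the 3 quiescent libraries had similar levels of the collagen and proteoglycan lists. Because quiescent cells were held in suspension, state and form of culture cannot be told apart for matrix and adhesion genes. Of 18 tested collagens 16 were lower and 1 higher (median -1.58), and the same numbers were called in each fit without 1 library. Through quiescent libraries alone 1 of them passed the filter, and through activated libraries alone 1, the higher one. Of the other 16, 15 were lower and 0 higher (median -1.7). Col12a1, a collagen that coats fibrils, was at 28.2, 13.4 and 29.7 FPKM in activated libraries, against 263, 313 and 196 FPKM in quiescent ones (log2 -3.43 ± 0.30, adjusted p 0.000354). Col3a1, a fibrillar collagen, was at 299.7, 131 and 326 FPKM in activated and 723, 923 and 1179 FPKM in quiescent libraries (log2 -1.97 ± 0.33). All 3 collagen VI genes fell, Col6a2 most, at 7.08, 1.52 and 7.0 FPKM in activated libraries, against 46.0, 74.0 and 119 FPKM in quiescent ones (log2 -3.78 ± 0.46). Activated replicate 2 was the lowest library for each of these collagens.

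Of 15 tested proteoglycans 10 were lower and 0 higher (median -1.76), again in every fit without 1 library. Sdc2, a heparan sulphate carrier of the cell surface, was at 55.9, 50.1 and 53.6 FPKM in activated and 231, 235 and 201 FPKM in quiescent libraries (log2 -2.04 ± 0.15, adjusted p 0.000222). Dcn, the collagen-binding decorin, was at 7.31, 6.59 and 6.82 FPKM in activated libraries, against 36.0, 69.3 and 79.9 FPKM in quiescent ones (log2 -2.91 ± 0.27). Ogn, a relative of it, was at 39.2, 19.7 and 28.5 FPKM in activated and 178, 181 and 155 FPKM in quiescent libraries (log2 -2.57 ± 0.23). The activated libraries of Sdc2 and Dcn lay close to each other, and all 3 genes had groups apart.

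Of 40 tested matrix glycoproteins 28 were lower and 0 higher (median -1.08; 2 were higher without activated replicate 3). The filter let 1 of the 40 in through quiescent libraries alone, and of the other 39, 27 were lower (median -1.08). Postn, the matricellular protein periostin (ENSMUSG00000027750.16, GRCm38 chromosome 3, 54361109 to 54391037), had the smallest p of all genes tested and was at 0.72, 0.65 and 1.09 FPKM in activated libraries, against 78.0, 46.3 and 59.1 FPKM in quiescent ones (log2 -5.07 ± 0.23, adjusted p 1.42e-05). Thbs1 was at 46.8, 44.9 and 44.5 FPKM in activated and 341, 372 and 332 FPKM in quiescent libraries (log2 -2.91 ± 0.15). Tnc was at 15.9, 11.0 and 9.57 FPKM in activated libraries, against 68.6, 54.9 and 56.5 FPKM in quiescent ones (log2 -2.24 ± 0.21). Fibronectin, Fn1, was at 216, 130.2 and 391 FPKM in activated and 896, 1317 and 1471 FPKM in quiescent libraries (log2 -2.43 ± 0.36). No activated library of these genes reached any quiescent one.

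Enzymes that cut and mature the matrix were lower in many of the genes tested. Among proteases, inhibitors and crosslinkers 23 of 44 tested members were lower and 2 higher (median -0.70; 1 higher without activated replicate 1 or 2 or quiescent replicate 2 or 3, and 3 higher without quiescent replicate 1). The filter let 2 of the 44 in through quiescent libraries alone, and of the other 42, 21 were lower and 2 higher (median -0.68). The ADAMTS proteases, which cleave proteoglycans and procollagens, fell in 8 of 10 tested genes (median -1.88). Adamts4 was at 2.23, 0.61 and 1.55 FPKM in activated libraries, against 10.0, 17.9 and 21.1 FPKM in quiescent ones (log2 -2.81 ± 0.32). Adamts5 was at 4.17, 2.61 and 3.46 FPKM in activated and 13.4, 15.8 and 14.6 FPKM in quiescent libraries (log2 -1.84 ± 0.20). Plod2, which hydroxylates collagen lysines, was at 12, 10.9 and 11.1 FPKM in activated libraries, against 31.8, 34.7 and 29.3 FPKM in quiescent ones (log2 -1.41 ± 0.16).

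Receptors of the matrix divided. Of 14 tested integrins 10 were lower and 2 higher (median -1.07; 1 higher without quiescent replicate 3). Through quiescent libraries alone 2 of these passed the filter, Itga11 among them. Of the other 12, 8 were lower and 2 higher (median -0.87). Itga11, a collagen receptor, was at 0.04, 0 and 0.05 FPKM in activated and 3.85, 3.78 and 4.31 FPKM in quiescent libraries (log2 -2.27 ± 0.16, adjusted p 0.000198), with values near 0 in the activated libraries. Itgb7, a subunit best known from lymphocytes, went the other way, at 26.1, 25.2 and 40.4 FPKM in activated libraries, against 5.69, 7.98 and 6.2 FPKM in quiescent ones (log2 2.03 ± 0.23). So did Itga6, a laminin receptor subunit, at 31.0, 47.8 and 26.1 FPKM in activated and 17.8, 18.0 and 13.9 FPKM in quiescent libraries (log2 1.00 ± 0.24, adjusted p 0.0146, and 0.0522 without quiescent replicate 3).

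Many cell contact and guidance genes were lower. Of 28 tested cadherins and protocadherins 22 were lower and 0 higher (median -1.07; 8 of the 28 had passed the filter through quiescent libraries alone; 2 were higher without activated replicate 3). Of the other 20, 14 were lower (median -0.98). Cdh11, a cadherin of mesenchymal cells, was at 2.44, 1.39 and 1.32 FPKM in activated libraries, against 10.9, 18.3 and 12.1 FPKM in quiescent ones (log2 -2.44 ± 0.25). Fat4, a giant cadherin, was at 3.13, 2.14 and 2.18 FPKM in activated and 11.3, 10.7 and 9.23 FPKM in quiescent libraries (log2 -1.72 ± 0.20). Of 14 tested clustered protocadherins 13 fell (median -1.17). These share exons within their clusters, which makes single members uncertain.

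Of 40 tested semaphorins, plexins, ephrins and other guidance genes 26 were lower and 0 higher (median -0.92), with 13 without quiescent replicate 2 and 16 without quiescent replicate 3. The filter let 1 of the 40 in through quiescent libraries alone, and of the other 39, 25 were lower (median -0.92). Slit2, a repellent, was at 9.91, 8.57 and 12.4 FPKM in activated libraries, against 44.7, 32.4 and 27.9 FPKM in quiescent ones (log2 -1.66 ± 0.22). Its receptor Robo1 was at 1.04, 0.93 and 0.9 FPKM in activated and 3.84, 4.29 and 3.17 FPKM in quiescent libraries (log2 -1.28 ± 0.18). Epha7, an ephrin receptor, was at 6.16, 4.57 and 3.92 FPKM in activated libraries, against 19.1, 16.3 and 13.4 FPKM in quiescent ones (log2 -1.56 ± 0.22). The 2 groups stayed apart in all 3 genes.

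Growth factor and receptor genes differed by family. In the fibroblast, platelet-derived and vascular growth factor list 9 of 22 tested members fell and 0 rose (median -0.47), and in that of EGF, HGF and other receptor kinases and ligands 3 of 20 fell and 3 rose (median -0.16), a lower share of 15.0%, near the 15.8% of all genes. Of these 20, 2 (Areg among them) passed the filter through activated libraries alone, so that they could only be higher. Of the other 18, 1 was higher and 3 were lower. Pdgfrb was at 28.9, 15.5 and 33.1 FPKM in activated and 112, 116 and 113 FPKM in quiescent libraries (log2 -2.17 ± 0.25, adjusted p 0.000813). The ligand Pdgfc was at 9.0, 6.43 and 14.6 FPKM in activated libraries, against 52.95, 53.6 and 38.3 FPKM in quiescent ones (log2 -2.21 ± 0.27). Egfr was at 6.47, 4.94 and 4.43 FPKM in activated and 14.9, 18.5 and 17.2 FPKM in quiescent libraries (log2 -1.52 ± 0.20). One of its ligands, amphiregulin, Areg, was higher, at 2.36, 3.67 and 4.73 FPKM in activated libraries, against 0.56, 0.26 and 0.7 FPKM in quiescent ones (log2 1.58 ± 0.23). The groups were apart in all 4 genes. Of the MAPK feedback genes, whose products dampen the kinase cascade, Spry1, a regulator of quiescence in muscle stem cells, was at 0.28, 0.29 and 1.0 FPKM in activated and 3.29, 5.62 and 4.75 FPKM in quiescent libraries (log2 -1.88 ± 0.24). Dusp1 was at 27.7, 20.6 and 18.6 FPKM in activated libraries, against 51.5, 61.5 and 70.5 FPKM in quiescent ones (log2 -1.42 ± 0.20). In that list 5 of 20 fell and 1 rose, and its median of -0.13 became 0.05 with quantile normalization (3 lower without activated replicate 1 or quiescent replicate 2, 0 higher without quiescent replicate 2 and 2 higher without activated replicate 3).

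Cdon, a co-receptor of Hedgehog that also promotes myogenesis, was at 10.6, 6.71 and 11.6 FPKM in activated and 35.3, 38.4 and 31.8 FPKM in quiescent libraries (log2 -1.80 ± 0.22). C1s1, a complement protease, was at 15.9, 10.3 and 12.7 FPKM in activated libraries, against 57.9, 81.3 and 63.5 FPKM in quiescent ones (log2 -2.30 ± 0.21, adjusted p 0.000389). In the list of complement, cytokine and chemokine genes 5 of 21 tested members fell and 0 rose (9 lower with equal sums, 8 lower without activated replicate 2, 1 higher without quiescent replicate 3). The 5 are 23.8% of the list, beside 15.8% lower among all genes. The chemokine Ccl2 was at 54.1, 131 and 11.2 FPKM in activated and 63.4, 60.2 and 60.4 FPKM in quiescent libraries (log2 -0.48 ± 0.66, not called), with activated libraries on both sides of the quiescent ones.

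Single genes at the ends of the comparison were of several kinds. Among the largest rises were genes best known from other tissues. Krt13, a keratin of stratified epithelia, was at 27.2, 32.3 and 10.6 FPKM in activated libraries, against 1.36, 2.94 and 1.91 FPKM in quiescent ones (log2 2.88 ± 0.37). Tigit, a checkpoint receptor of T cells, was at 16.2, 31.4 and 18.1 FPKM in activated and 1.86, 3.43 and 2.63 FPKM in quiescent libraries (log2 2.62 ± 0.27). Nefl, the light neurofilament protein, was at 8.27, 22.3 and 6.0 FPKM in activated libraries, against 0.67, 1.89 and 0.87 FPKM in quiescent ones (log2 2.46 ± 0.41). Cd68, a glycoprotein of macrophage lysosomes, was at 13.6, 11.3 and 4.12 FPKM in activated and 1.57, 1.04 and 1.54 FPKM in quiescent libraries (log2 2.03 ± 0.35). In all 4 the groups were apart, and activated replicate 3 was the lowest activated library for Krt13, Nefl and Cd68. Of 5 blood markers, Cd68 was higher and Ptprc, Adgre1 and Cd3e were under 0.1 FPKM, and their sum was 13.9, 11.5 and 4.32 FPKM in activated replicates 1 to 3, against 1.96, 1.44 and 2.08 FPKM in quiescent ones. Of 5 nerve markers Nefl and Tubb3 were higher and Rbfox3 and Sox10 under 0.1 FPKM, and their sum was 16.1, 26.9 and 12.3 FPKM in activated, against 2.84, 3.96 and 2.26 FPKM in quiescent replicates 1 to 3. Of 5 epithelial markers 0 were called, Epcam, Cdh1 and Krt18 were under 0.1 FPKM, and their sum was 10.3, 5.18 and 7.58 FPKM in activated, against 6.59, 2.74 and 1.24 FPKM in quiescent replicates 1 to 3. The part of such cells in these rises was not tested. Slc16a11, a carrier of monocarboxylates, was at 124, 81.3 and 87.5 FPKM in activated libraries, against 19.7, 20.2 and 23.0 FPKM in quiescent ones (log2 2.14 ± 0.19, adjusted p 0.000389).

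Genes with at least 5 FPKM in every quiescent library and under 1 FPKM in every activated one were Myh3, Igf2, Dio2, Gm2016 and Lrrc32, and no gene showed the opposite. Igf2, a growth factor of myoblasts, was at 0.52, 0.18 and 0.71 FPKM in activated and 15.7, 45.3 and 41.0 FPKM in quiescent libraries (log2 -4.46 ± 0.36). Dio2, which activates thyroid hormone, was at 0.5, 0.28 and 0.93 FPKM in activated libraries, against 10.8, 17.9 and 14.2 FPKM in quiescent ones (log2 -3.28 ± 0.24). Lrrc32, which holds latent TGF-beta at the cell surface, was at 0.92, 0.54 and 0.62 FPKM in activated and 8.52, 6.35 and 6.42 FPKM in quiescent libraries (log2 -2.25 ± 0.19). Their groups were apart by that rule, which Enpp2 missed in the activated libraries. Enpp2, the secreted enzyme that makes lysophosphatidic acid, was at 5.33, 3.13 and 5.69 FPKM in activated libraries, against 76.8, 111 and 102 FPKM in quiescent ones (log2 -4.11 ± 0.23, adjusted p 4.5e-05).

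Among lncRNA genes, as over all genes, falls outnumbered rises. Of 410 tested lncRNA genes 25 rose and 111 fell, beside 1198 higher (10.2%) and 1850 lower (15.8%) of all 11742 genes. How the lncRNA counts change with scaling or without single libraries was not tested. Malat1, a nuclear RNA of speckles, was at 1383, 1850.4 and 1677 FPKM in activated and 7184, 5342 and 6374 FPKM in quiescent libraries (log2 -1.94 ± 0.21, adjusted p 0.000625). Neat1, the scaffold of paraspeckles, was at 19.7, 22.2 and 47.6 FPKM in activated libraries, against 135, 105 and 106 FPKM in quiescent ones (log2 -2.01 ± 0.30). The imprinted H19 was at 473, 129 and 169 FPKM in activated and 675, 957 and 1298 FPKM in quiescent libraries (log2 -2.11 ± 0.43), with activated replicate 1 above the other activated libraries. Snhg20, a host of small nucleolar RNAs, rose, at 72.4, 89.1 and 105 FPKM in activated libraries, against 30.1, 42.3 and 33.3 FPKM in quiescent ones (log2 1.31 ± 0.20). The groups were apart in all 4. Ftl1, the ferritin light chain and among the most abundant coding genes that rose, was at 5876, 6212 and 7163 FPKM in activated and 3543, 2852 and 3086 FPKM in quiescent libraries (log2 1.02 ± 0.20).

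In the same contrast in cells with the hairpin against Foxm1, most of the called genes had the same sign. Foxm1 itself was at 14.5, 14.7, 27.6 and 11.2 FPKM in activated and 9.95, 6.61, 8.0 and 15.6 FPKM in quiescent shFoxM1 cells, and at 37.1, 35.3 and 34.9 FPKM in activated libraries, against 23.9, 12.8 and 10.0 FPKM in quiescent ones of shControl cells. Every activated shFoxM1 library was below the activated shControl libraries, while in quiescence the hairpin groups overlapped. Of the 1198 genes higher on activation in shControl cells 1189 had a positive log2 fold change in shFoxM1 cells, with a median of 0.88 in both. Of the 1850 lower genes 1833 had a negative one, with a median of -0.68, against -0.93 in shControl cells. These genes were chosen by their calls in shControl cells, which favours large values there, so the medians do not compare the hairpins evenly. The share of all 11742 genes with the same sign under both hairpins was not counted. The median of all genes was 0.04 in shFoxM1 cells, against -0.10 in shControl cells. For single genes the log2 fold changes in shFoxM1 cells were -3.99 for Postn, -3.86 for Igf2, -3.10 for Myh3, -4.65 for Enpp2 and 1.69 for Gsta1. The test of the difference between the responses, an interaction term over 14 libraries, called 0 of 11742 genes (0.0%, limma; smallest adjusted p 0.987), with 423 at an unadjusted p below 0.05. On simulated data that test recovered 33% of 2-fold and 91% of 4-fold differences. The simulated noise was independent between genes and libraries and equal in all groups of a gene, and low genes were not among the changed ones. Recovery under shifts shared by many genes of 1 library, as seen in the real data, was not tested.

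**Figure D5:**
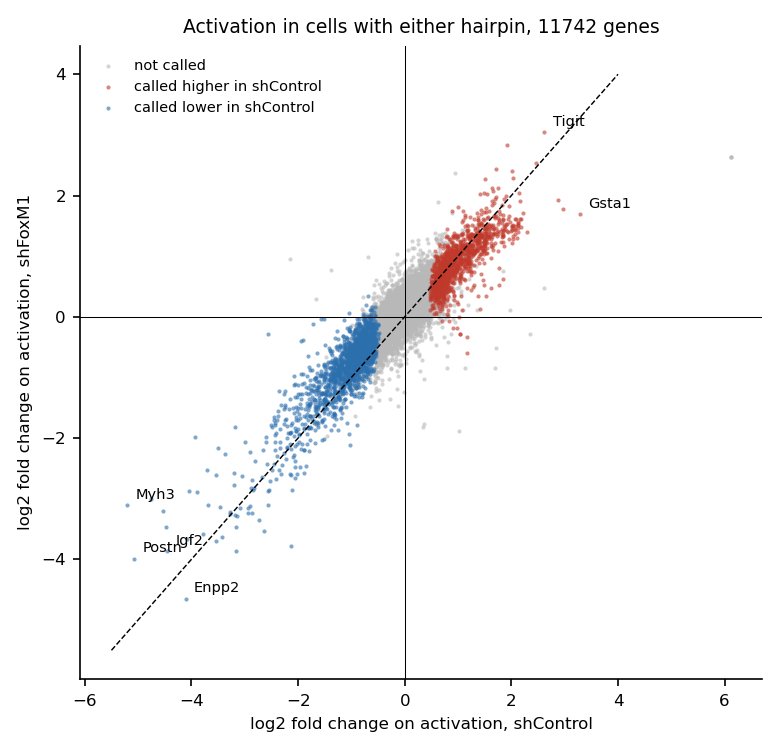
Log2 fold change on activation in shFoxM1 cells (vertical axis, 4 activated and 4 quiescent libraries) against that in shControl cells (horizontal axis, 3 and 3), 1 point per gene for 11742 genes, coloured by the call in shControl cells, with the line of equal change dashed. Called genes lie along the line with few in the opposite quadrants, and Postn reads -3.99 in shFoxM1 against -5.07 in shControl cells.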

How the data were processed

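Total RNA was sequenced with the Illumina TruSeq RNA kit, per the labels' protocols. The authors deposited FPKM values per gene in 1 table for 14 libraries, made with RSEM and GENCODE per the table's name. Tools listed in the submitters' processing notes, without roles, are HTSeq, Cufflinks 2.1.1 and Bowtie 0.12.9, with the build mm10. Strand use in counting is not given in the sources used here, so overlapping and antisense genes are uncertain. FPKM values carry no counts; depth was estimated from the steps between low values. Genes reaching 1 FPKM in 3 or more of the 6 shControl libraries were tested on log2(FPKM + 1), which understates changes of low genes, with limma 3.58.1 (R 4.3.3) with a variance trend, Benjamini-Hochberg adjusted over 11742 genes, threshold 0.05. An exact permutation test of 3 against 3 cannot go below 0.10. The difference between hairpins was an interaction in a model of all 14 libraries. In simulated data, 42% of 2-fold and 92% of 4-fold changes were recovered, and 3 unchanged genes were called. The noise there was independent between genes and libraries, and low genes were not among the changed ones, so recovery in the real libraries may differ.

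Members and lists were chosen with earlier results of these data known, and the subsets (such as condensin or troponins) after values were seen. Named genes were, per list, the 4 with the smallest p and members whose role the account needs, plus the largest fold changes, the largest differences in level, genes crossing between 5 and 1 FPKM, and lncRNAs. Promoter windows came from RefSeq (GRCm38.p6), the first where a gene had several. Alternatives covered the model, pseudocount, filter, scaling, variance, threshold and left-out libraries.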

Additional observations from a re-analysis of the deposited data

How the results depend on the processing

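The counts of called genes, 1198 higher and 1850 lower, moved by more than 1.5 times under these settings. They were 435 and 773 at an adjusted p below 0.01, and 477 and 793 with a 2-fold minimum. Array weights, which let libraries count unequally, gave 3478 and 5725, but their estimate did not converge and put a weight of 53 on quiescent replicate 2, against 0.206 to 4.4 on the other libraries, so these counts rest mainly on 1 quiescent library. A gene-by-gene estimate, added after seeing the data, gave 2375 and 4132 with weights of 0.379 to 6.41. The higher count was 786 with no filter on low values and 553 with equal sums without the 4 short RNAs, where the median of all genes was -0.29. Leaving out 1 library gave 454 to 1238 higher and 779 to 2315 lower genes, and the lowest pair came without quiescent replicate 2. The replicate block gave 1242 and 1756, and of the genes named it added calls for Krt14 (adjusted p 0.0051) and Gm24950 (4.13e-06). Whether replicate numbers pair the libraries is not stated. Deviations of same-numbered libraries correlated at -0.231, -0.061 and 0.143, and those of differently numbered ones at -0.323 to 0.332. With 3 libraries per group these values depend on each other and cannot settle it. The difference between hairpins called 0 genes under every alternative run, leave-one-out fits included (0 to 0).

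Among named genes, directions turned for 5 that were not called. The log2 fold change of Des was 0.23 with array weights, 0.14 with the gene-by-gene estimate, and -0.37 to 0.23 over the fits without 1 library, positive without activated replicate 2 or quiescent replicate 3 (0.03). Hmox1 was 0.05 with median-of-ratios scaling and -0.89 to 0.38 without 1 library. Without 1 library, Ccl2 ran between -1.26 and 0.45 and Slc7a5 between -0.10 and 1.27, turning in both without activated replicate 3, and Lmna was -0.29 with quantile normalization. List medians that turned were -0.06 for importins and exportins, -0.03 for RNA polymerase I and III and -0.02 for the tricarboxylic acid cycle with equal sums, and -0.05 for ribosomal proteins and 0.05 for MAPK feedback genes with quantile normalization. Importins ran between -0.01 (without quiescent replicate 3) and 0.34 without 1 library. Endoplasmic reticulum chaperones were 0.03 with median-of-ratios scaling and -0.25 to 0.03 without 1 library. Glycolysis and p53 targets were 0.03 and 0.02 with a mean of at least 5 FPKM, and p53 targets were 0.05 after median-of-ratios scaling, 0.03 after quantile normalization and -0.11 to 0.09 without 1 library. The cause was not tested. Itga6, Gas1, Gaa, H19, Lmnb1, Myod1, Nqo1, Krt19, Nipbl and Foxm1 lost their calls with no filter on low values, Nipbl also in the model of all 14 libraries (adjusted p 0.155), and Eif5a and Ftl1 with quantile normalization. Cdk4, Krt14 and Gm24950 gained a call with median-of-ratios scaling, Cdk4 in the model of all 14 libraries (0.0341), Krt14 with quantile normalization and Gm24950 with equal sums. Hmox1 gained one without activated replicate 3, and Krt14 and Gm24950 without quiescent replicate 1.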

Other observations

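Other gene families were counted in the same way. Of 269 tested genes named Zfp, mostly zinc finger DNA-binding proteins, 45 fell and 4 rose (median -0.34, against -0.10 for all genes). The lower share of 16.7% is near the 15.8% of all genes, and 17 fell and 8 rose with quantile normalization. The lower count was 9 without activated replicate 1, 21 without quiescent replicate 1, 7 without quiescent replicate 2 and 26 without quiescent replicate 3. The filter let 4 of the 269 in through quiescent libraries alone, and of the other 265, 43 fell and 4 rose (median -0.34). Zfp36, which speeds the decay of AU-rich messengers, was at 5.36, 5.05 and 5.07 FPKM in activated and 10.5, 11.1 and 13.6 FPKM in quiescent libraries (log2 -1.04 ± 0.18, adjusted p 0.00406, limma). Of 150 tested solute carriers 24 fell and 7 rose (median -0.17), a lower share of 16.0%, near that of all genes. The higher count was 17 after quantile normalization, 13 after median-of-ratios scaling and 2 with equal sums. The counts were 10 lower and 3 higher without quiescent replicate 2, 3 higher without quiescent replicate 3, 16 lower without activated replicate 1, and 37 lower without activated replicate 3. The filter let 3 of the 150 in through quiescent libraries alone, and of the other 147, 21 fell and 7 rose (median -0.16). Slc8a1, a sodium-calcium exchanger, was at 1.78, 1.5 and 1.55 FPKM in activated libraries, against 4.59, 4.88 and 4.4 FPKM in quiescent ones (log2 -1.11 ± 0.17).

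Of 5 tested keratins of 49 listed, 3 rose and 0 fell (median 1.43), and 4 rose without quiescent replicate 1. Krt19 passed the filter through activated libraries alone, so that it could only be higher, and of the other 4, 2 rose. Krt19, a small keratin of simple epithelia, was at 3.8, 5.85 and 1.32 FPKM in activated and 0.44, 0.39 and 0.7 FPKM in quiescent libraries (log2 1.50 ± 0.34, adjusted p 0.0127, and 0.0681 with no filter on low values). Krt14 was at 10.1, 4.99 and 7.4 FPKM in activated libraries, against 6.52, 2.53 and 1.14 FPKM in quiescent ones (log2 1.10 ± 0.41, adjusted p 0.0758, not called, but 0.0383 after quantile normalization, 0.0491 after median-of-ratios scaling, 0.0051 in the fit with a replicate block and 0.00474 without quiescent replicate 1). Of 10 tested imprinted genes 7 fell and 0 rose (median -0.84; 4 without quiescent replicate 2 and 5 without activated replicate 1 were the lowest counts). Igf2 passed the filter through quiescent libraries alone, and of the other 9, 6 fell (median -0.78). Peg3, a zinc finger protein expressed from the paternal allele, was at 14.1, 12.6 and 17.3 FPKM in activated and 42.7, 55.1 and 43.2 FPKM in quiescent libraries (log2 -1.62 ± 0.19). Zim1, its neighbour, was at 1.27, 0.99 and 1.58 FPKM in activated libraries, against 6.18, 6.87 and 5.96 FPKM in quiescent ones (log2 -1.69 ± 0.18).

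Of 22 tested p53 targets 4 rose and 3 fell (1 higher with equal sums), and their median of -0.06 became 0.05 with median-of-ratios scaling and 0.03 with quantile normalization. The 4 and 3 are 18.2 and 13.6% of the list, beside 10.2% higher and 15.8% lower among all genes. The calls were 1 higher without quiescent replicate 2 and 7 lower without activated replicate 3, with 2 lower without activated replicate 2 or quiescent replicate 2. Fas, the death receptor, was at 2.36, 0.86 and 1.27 FPKM in activated and 6.25, 5.4 and 4.14 FPKM in quiescent libraries (log2 -1.36 ± 0.25). Copies of the U2 small nuclear RNA summed to 4015, 4364 and 3106 FPKM in activated replicates 1 to 3, against 4113, 7694 and 9238 FPKM in quiescent replicates 1 to 3. Reads cannot be assigned to single copies with certainty: Gm23971 held nearly all of them in quiescent replicates 2 and 3, where the other copies were near 0.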
